A study of Mus musculus with 2 samples.

Results

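The collagen genes of the mouse were described here in stromal cells of white fat. They were taken as every gene symbol in the deposited matrices that reads Col, a number, a and a number, which gave 44 of 32246 symbols. The series compared a WT and a Paqr4 transgenic mouse line, the latter carrying extra Paqr4, a membrane protein of the progestin and adipoQ receptor family, and asked how it affects the mixed pool of fat progenitors. Each genotype was given as 1 droplet library of 3′ transcript tags from CD45- stromal vascular cells, that is, cells left after collagenase digestion of the fat, red cell lysis and sorting against the blood cell marker CD45. Cells of 3 mice were pooled, without a statement of how many per genotype. The promoter that drives the transgene, its site of expression, and the sex and age of the animals are not given in the sources used here. Since each genotype is a single library, no replicate and no test was possible, and genotype, library and animal cannot be told apart.

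Collagens are triple helices wound from 3 alpha chains, each chain from its own gene. Fibrillar collagens form the cross-striated fibrils that carry tension, type IV collagen forms the sheet of the basement membrane, type VI collagen forms beaded microfibrils around cells, and the fibril-associated collagens decorate fibril surfaces. In fat, progenitors build the stromal fibrils, every mature adipocyte is wrapped in a basement membrane, and endothelial cells lay down the membrane of the capillary wall.

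After filters of at least 1000 unique molecular identifiers (UMIs), at least 500 genes and at most 10% mitochondrial UMIs per barcode, and removal of called doublets, 1326 WT and 1512 transgenic cells remained, with medians of 21612.5 and 18703 UMIs. No cell barcode was shared by cells of both libraries. Paqr4 itself stood at 7.88 UPM (UMIs per 1000000 UMIs of a class of cells) in WT and 9.55 UPM in transgenic progenitors. Xist, the RNA of the silenced X chromosome, stood at 958 UPM in the WT and 0.153 UPM in the transgenic progenitors, and the Y-linked Ddx3y at 0.937 and 109.9 UPM, so that sex moved with genotype and they cannot be told apart. The labels give subcutaneous fat, yet Wt1, a gene known from visceral fat progenitors, stood at 499 and 381 UPM, and Tbx15, known from subcutaneous fat, at 1.09 and 2.22 UPM. An unnamed cluster of 25 WT and 5 transgenic cells was led by the pancreatic acinar genes Clps and Ctrb1.

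No collagen gene was among the genes that made or named the clusters, though collagen UMIs counted in the scaling of each cell. Progenitors, marked by Pdgfra, Dcn and Ly6a, numbered 1126 in WT and 1351 in the transgenic library. Among them, 258 and 205 cells were Dpp4-like, a state led by Pi16 and known for interstitial progenitors. The Icam1-like cells numbered 304 and 427 and the F3-like cells 128 and 221. Icam1-like cells rested on 3 markers from a longer list of preadipocyte markers, the fewest that the naming allowed. They were led by the stress genes Fos, Jun, Hspa1b and Dnajb1. A cluster led by Abca8a, Kcnk2 and Mgp (cluster 1, 172 and 297 cells) and one led by Il6, Ptx3 and Tnfaip6 (cluster 2, 264 and 201 cells) took no state name. Endothelial-like cells numbered 95 and 79. Intervals below are exact, at 95%, and cover counting error only.

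Collagen transcripts made up 1.30% of all UMIs in WT progenitors and 1.39% in transgenic progenitors. Over single cells the median share was 1.23% in WT, with quartiles of 0.935% and 1.55%, and 1.30% in the transgenic library, with quartiles of 0.998% and 1.66%. In endothelial-like cells collagens took 0.50% and 0.355%. Of the 44 genes, 29 reached 10 UPM in progenitors, a state or endothelial-like cells of at least 1 library, namely 7 of 11 fibrillar, 8 of 8 basement membrane, 5 of 6 microfibril, 4 of 9 fibril-associated and 5 of 10 other collagens. In the classes with at least 50 cells per library the other 15 lay between 0.116 UPM for Col9a2 and 4.19 UPM for Col25a1 at their highest, and Col7a1 had 10 UMIs (5.50 UPM) in the 108 transgenic cells of a smaller cluster within the F3-like state (cluster 6). They were Col2a1, Col9a1, Col9a2, Col9a3, Col10a1, Col11a1 and Col11a2, known from cartilage, Col7a1 and Col17a1, which anchor epithelium, and Col6a4, Col19a1, Col22a1, Col24a1, Col25a1 and Col26a1.

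**Figure D1:**
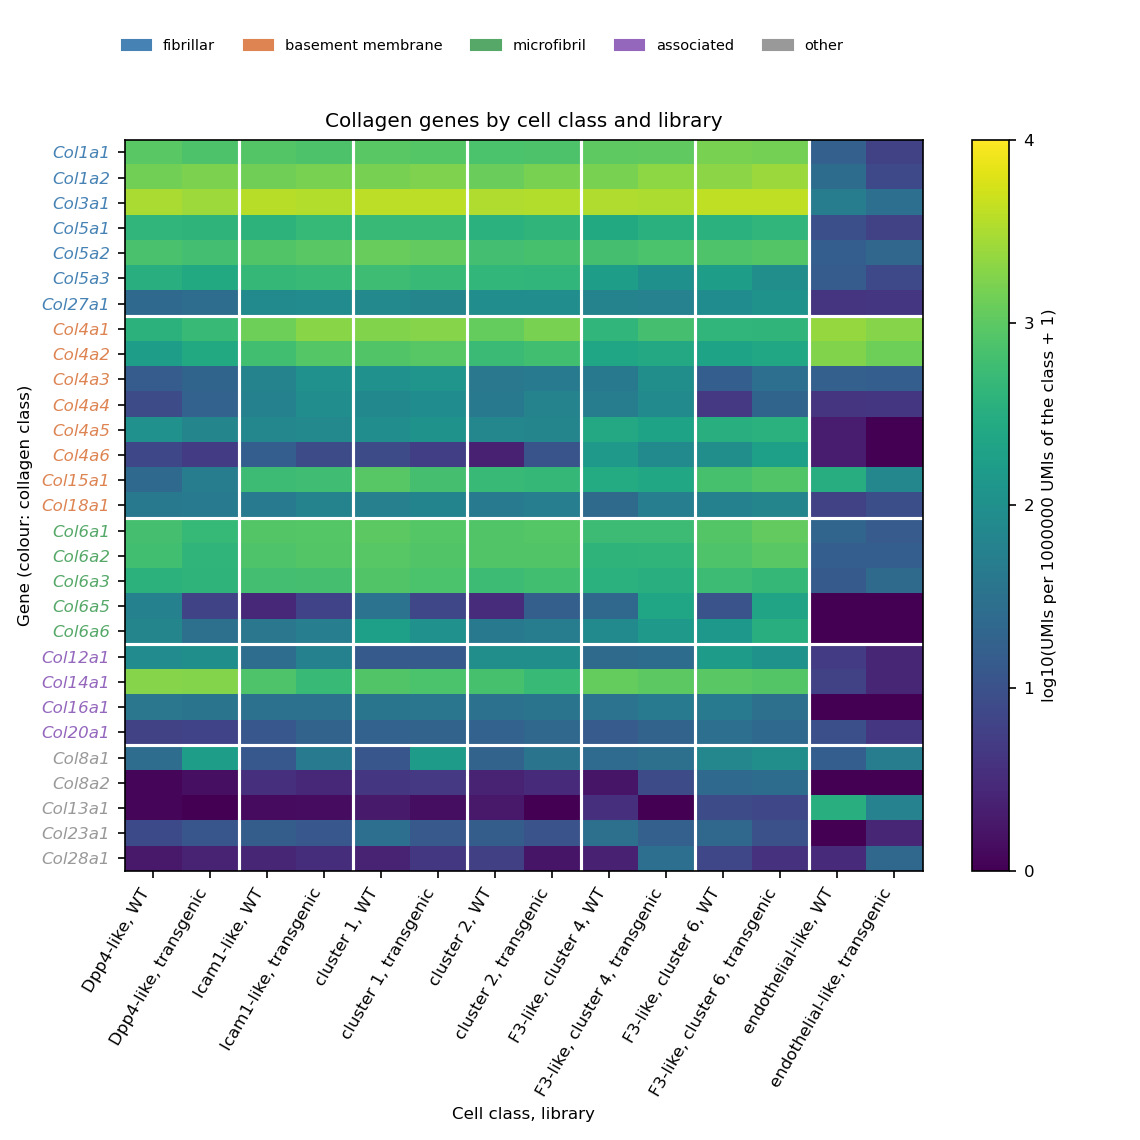
Level of the 29 collagen genes at 10 UPM or more (rows) in 7 classes of cells of the WT and the Paqr4 transgenic library (columns), as log10 of UPM plus 1. Fibrillar genes and Col6a1 to Col6a3 are bright in every progenitor class and dark in endothelial-like cells, where Col4a1, Col4a2 and Col13a1 are bright.

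Fibrillar collagens were the bulk of the family in progenitors, at 7431 UPM in WT and 7728 UPM in the transgenic library, or 57.2% and 55.6% of collagen UMIs. Microfibril collagens held 16.7% and 16.1%, basement membrane collagens 16.5% and 20.6%, and fibril-associated collagens 9.23% and 6.87%. The transgenic library thus had the larger basement membrane share and the smaller associated share. Dpp4-like cells stood apart in the same 2 classes: basement membrane collagens took 6.44% and 8.90% of their collagen UMIs, and associated collagens 17.7% and 18.2%. In endothelial-like cells the order turned, with 88.9% and 92.5% in basement membrane genes and 2.57% and 2.10% in fibrillar genes.

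**Figure D2:**
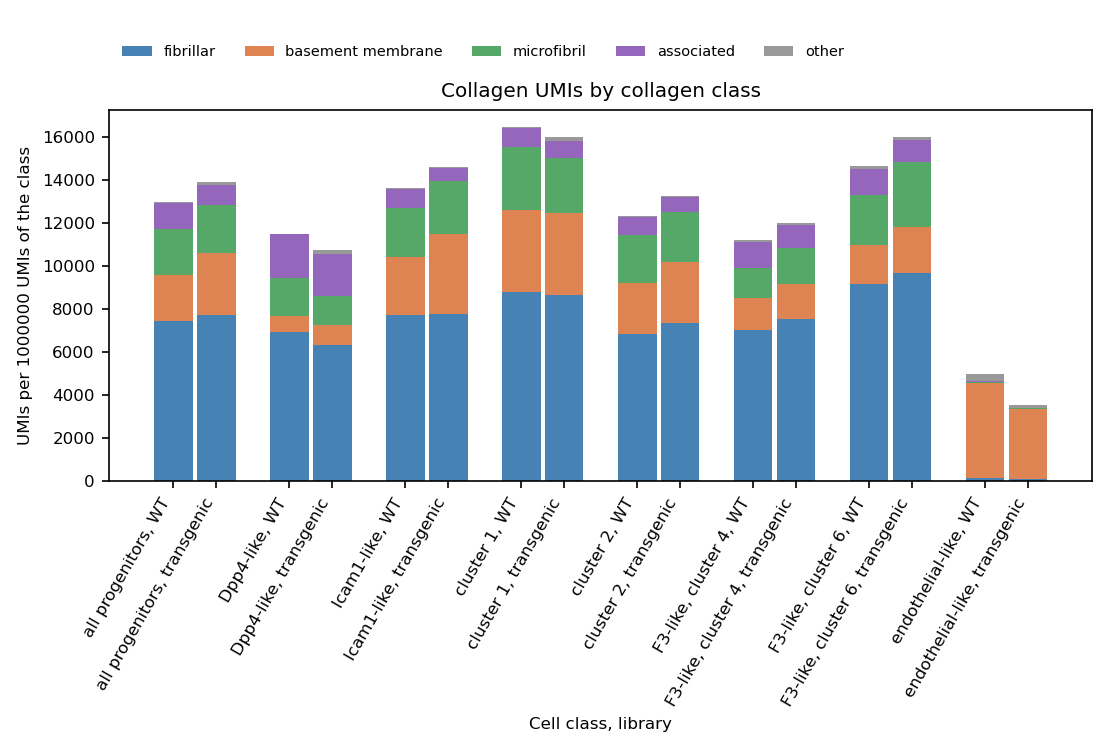
Summed UPM of the fibrillar, basement membrane, microfibril, associated and other collagens (stacked) in all progenitors and 7 classes of cells, WT and Paqr4 transgenic side by side. Dpp4-like bars have the thinnest basement membrane layer of the progenitor classes, and endothelial-like bars are almost all basement membrane collagen.

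Among fibrillar genes, Col3a1, whose chain forms the thin fibrils of soft tissue, was the most abundant collagen, at 3503 UPM in the WT and 3414 UPM in the transgenic progenitors. Col1a2 and Col1a1 encode the chains of type I collagen, in which an alpha1 pair joins a single alpha2 chain. Col1a2 stood at 1385 and 1701 UPM, higher in the transgenic library by 0.30 on the log2 scale (0.28 to 0.32). Col1a1 stood at 894 and 853 UPM, nearly level between the libraries. The ratio of Col1a1 to Col1a2 UMIs was accordingly 0.646 in WT and 0.502 in the transgenic library. It ranged from 0.603 to 0.776 over the 6 progenitor clusters of WT and from 0.474 to 0.579 over those of the transgenic library. The clusters of a library all come from that library and are not replicates. In barcodes with at most 50 UMIs, which hold free RNA, the ratio was 0.681 and 0.559.

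The type V chains, which seed fibrils and set their width, differed little between libraries in progenitors. Col5a1 stood at 398 and 444 UPM, Col5a2 at 775 and 852 UPM, and Col5a3 at 408 and 392 UPM. Col5a3 varied most over the states: it stood at 170 and 97.2 UPM in F3-like cells, against 463 and 492 UPM in Icam1-like cells. Col27a1, a short fibrillar collagen, stood at 65.8 and 72.0 UPM in progenitors and was lowest in Dpp4-like cells, at 22.2 and 25.7 UPM.

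The 6 type IV genes lie in the genome as head-to-head pairs, each pair running in opposite directions from a shared stretch. The annotated starts of Col4a1 and Col4a2 are 21 bases apart on chromosome 8, those of Col4a3 and Col4a4 are 72 bases apart on chromosome 1, and those of Col4a5 and Col4a6 are 1309 bases apart on chromosome X (GRCm38). The windows from 250 bases before to 50 bases after the start are shown because they hold both starts of the first 2 pairs. They are from RefSeq on GRCm38.p6, 5′ to 3′ on the gene's strand: chr8:11312777-11313076 (-) for Col4a1, chr1:82586800-82587099 (-) for Col4a4, chrX:141474027-141474326 (-) for Col4a6 and chrX:141475169-141475468 (+) for Col4a5. Capitals mark CCAAT and GGGCGG on either strand (ATTGG and CCGCCC when reversed), 2 motifs that do not overlap each other.
Col4a1: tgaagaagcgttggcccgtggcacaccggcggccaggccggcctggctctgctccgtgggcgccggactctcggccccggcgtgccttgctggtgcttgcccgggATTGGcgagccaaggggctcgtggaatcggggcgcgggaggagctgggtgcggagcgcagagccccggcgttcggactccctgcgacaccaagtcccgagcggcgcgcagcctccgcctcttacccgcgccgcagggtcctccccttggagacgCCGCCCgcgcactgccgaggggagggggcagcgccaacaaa
Col4a4: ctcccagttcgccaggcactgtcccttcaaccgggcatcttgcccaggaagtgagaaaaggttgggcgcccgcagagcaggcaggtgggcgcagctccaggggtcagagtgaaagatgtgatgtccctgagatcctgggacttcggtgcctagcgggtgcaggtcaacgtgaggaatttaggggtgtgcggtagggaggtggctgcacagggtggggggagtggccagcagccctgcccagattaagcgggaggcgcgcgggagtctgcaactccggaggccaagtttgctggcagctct
Col4a6: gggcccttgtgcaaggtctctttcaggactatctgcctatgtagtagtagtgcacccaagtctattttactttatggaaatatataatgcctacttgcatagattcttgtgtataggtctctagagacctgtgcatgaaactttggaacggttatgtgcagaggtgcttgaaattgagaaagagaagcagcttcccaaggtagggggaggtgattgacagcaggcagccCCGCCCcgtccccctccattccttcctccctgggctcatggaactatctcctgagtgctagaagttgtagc
Col4a5: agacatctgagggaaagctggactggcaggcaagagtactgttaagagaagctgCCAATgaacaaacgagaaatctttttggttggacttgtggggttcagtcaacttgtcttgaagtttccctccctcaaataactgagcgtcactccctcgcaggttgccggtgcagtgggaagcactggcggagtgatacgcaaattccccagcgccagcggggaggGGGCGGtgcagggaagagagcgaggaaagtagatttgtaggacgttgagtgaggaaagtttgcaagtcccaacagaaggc
The Col4a1 window, at 74% G and C, held 1 CCAAT and 1 GGGCGG, and so did the Col4a5 window. The Col4a6 window held 1 GGGCGG, and the Col4a4 window neither. Among 32851 windows of the same 300 bases in the RefSeq table, 37.4% held CCAAT and 35.7% held GGGCGG. Of the 38 windows of collagen genes, which covered 35 of the 44 symbols, 13 (34.2%) held CCAAT and 23 (60.5%) held GGGCGG. These matches are letters in a window and not measured binding.

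Col4a1 and Col4a2, the chains of the basement membrane found around most cells, stood at 999 and 468 UPM in WT progenitors and 1410 and 643 UPM in transgenic progenitors. Col4a1 was thus higher in the transgenic library by 0.50 (0.47 to 0.52) and Col4a2 by 0.46 (0.43 to 0.49) on the log2 scale. The ratio of Col4a1 to Col4a2 was 2.13 and 2.19 in progenitors and 1.36 and 1.47 in endothelial-like cells. Col4a3 and Col4a4, chains known from the kidney filter, stood at 45.6 and 39.1 UPM in WT and at 75.7 and 66.8 UPM in the transgenic library. Col4a3 was higher there by 0.73 (0.63 to 0.84) and Col4a4 by 0.77 (0.66 to 0.89). After thinning of every cell to 5000 UMIs the Col4a3 difference was 0.59. Col4a5 stood at 101 and 107 UPM and Col4a6, known from smooth muscle basement membrane, at 18.1 and 23.7 UPM.

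Among progenitors the first 2 pairs were highest in cluster 1 or Icam1-like cells, and the last pair in F3-like cells. Col4a1 and Col4a2 stood at 377 and 171 UPM in WT Dpp4-like cells and at 494 and 263 UPM in transgenic ones, against 1751 and 821 UPM (WT) and 1862 and 901 UPM (transgenic) in cluster 1 and 1300 and 611 UPM (WT) and 1925 and 874 UPM (transgenic) in Icam1-like cells. The cells led by Piezo2 and Itgbl1 within the F3-like state (cluster 6, 41 and 108 cells) were as low, at 428 and 212 UPM in WT and 412 and 239.7 UPM in the transgenic library. Col4a3 and Col4a4 were likewise low in Dpp4-like cells, at 13.8 and 7.34 UPM in WT and 18.7 and 17.4 UPM in the transgenic library. In cluster 6 they stood at 14.6 and 3.65 UPM in WT and 28.0 and 18.7 UPM in the transgenic library. In cluster 1 they reached 103 and 72.6 UPM in WT and 119 and 86.0 UPM in the transgenic library. Col4a5 and Col4a6 instead peaked in F3-like cells, at 282 and 125 UPM in WT and 285 and 132 UPM in the transgenic library. The near-level Col4a6 values there held opposite differences in the 2 F3-like clusters, from 141 UPM in WT to 81.2 UPM in the transgenic library in cluster 4 (-0.80) and from 93.7 to 181 UPM in cluster 6 (0.95). In Dpp4-like cells Col4a6 stood at 6.44 and 4.13 UPM, whereas Col4a5 stood at 103 and 64.3 UPM, so the members of this pair did not share 1 pattern. In WT Icam1-like cells this pair stood at 68.9 and 14.4 UPM and in transgenic ones at 75.3 and 7.20 UPM. Markers of pericytes and smooth muscle, of which 5 of 8 reached 10 UPM in F3-like cells, summed to 187 and 121 UPM there and 47.9 and 45.1 UPM in all progenitors. Their part in the Col4a5 and Col4a6 levels was not tested.

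**Figure D3:**
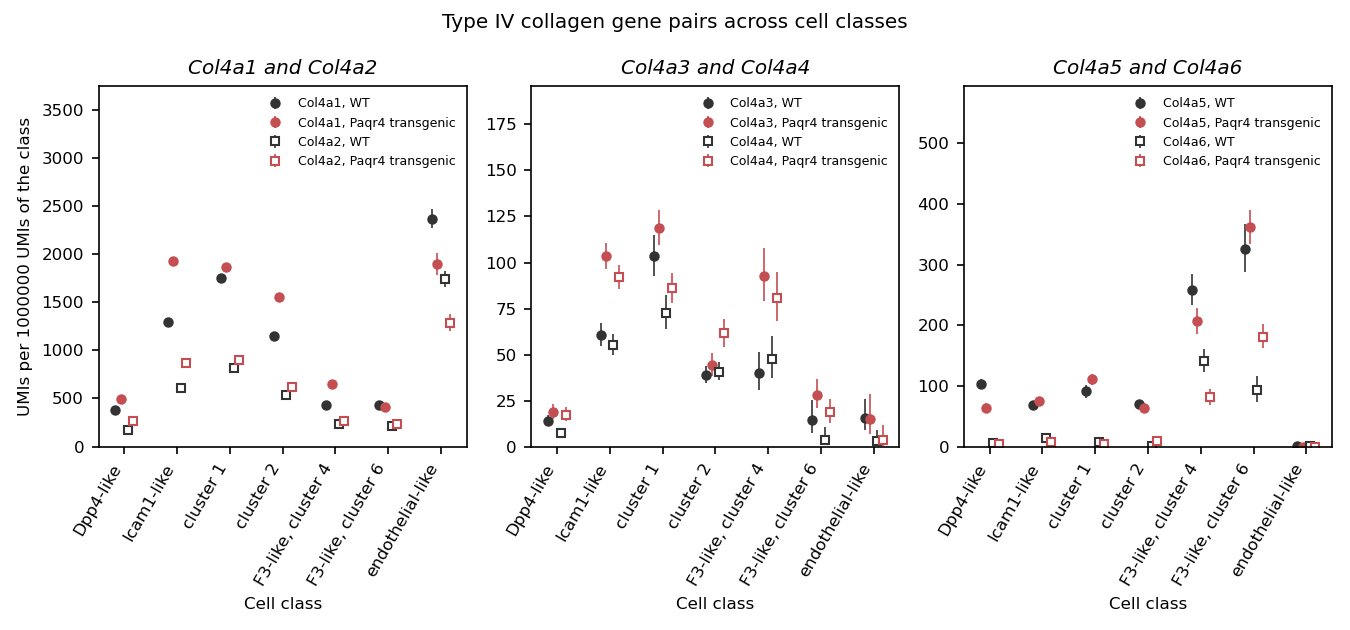
Level in UPM, with exact 95% Poisson intervals, of the 3 type IV pairs (1 panel each) over 7 classes of cells in the WT and the Paqr4 transgenic library. Col4a2 in both libraries and Col4a1 in WT peak in endothelial-like cells, Col4a3 in cluster 1, and Col4a5 and Col4a6 in the F3-like clusters, whereas transgenic Col4a1 and Col4a4 are highest in Icam1-like cells, while Col4a1 to Col4a4 are low in Dpp4-like cells and in cluster 6.

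Members of a pair were also detected together in single cells, with all progenitor states pooled. Over 1101 WT and 1304 transgenic progenitors thinned to 5000 UMIs, with 25 and 47 shallower cells left out, Col4a4 was detected in 28.1% of WT cells with a Col4a3 UMI and 12.3% of those without. The corresponding shares in the transgenic library were 47.6% and 16.0%. Col4a6 was detected in 9.22% of WT cells with Col4a5 and 2.39% of those without, and in 14.5% and 2.94% of the transgenic cells. This did not hold between Col4a3 and Col4a6, which are of different pairs. Col4a6 was detected in 1.75% of WT cells with Col4a3 and 5.05% of those without, and in 3.27% and 7.19% of the transgenic cells. Detection of Col4a1 or Col4a2 was not set against that of the other pairs. Over the same cells Col4a1 and Col4a2 had a Spearman's rho of 0.60 in WT and 0.62 in the transgenic library, the highest of 91 pairs among 14 abundant collagens. Cells of a library share its depth and free RNA, so these values describe and do not test. The levels of these genes differed by state, and the part of state in the shared detection was not tested.

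The remaining basement membrane genes encode collagens that release anti-angiogenic fragments. Col15a1 stood at 432 and 484 UPM in progenitors, but at only 22.2 and 49.3 UPM in Dpp4-like cells, against 905 and 666 UPM in cluster 1. Col18a1 stood at 43.4 and 56.2 UPM in progenitors and ranged over the progenitor clusters from 22.9 UPM in WT cells of cluster 4, the other F3-like cluster, to 64.3 UPM in transgenic cells of cluster 6.

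Type VI microfibrils are assembled from alpha1, alpha2 and a further chain, which may be alpha3 or a relative of it such as alpha5 or alpha6. The first 3 genes were level between the libraries in progenitors, with Col6a1 at 789 and 804 UPM, Col6a2 at 741 and 742 UPM, and Col6a3 at 548 and 579 UPM. Col6a1 to Col6a2 held a ratio of 1.06 and 1.08. Within Dpp4-like cells, however, Col6a1 was 656 UPM in WT and 480 UPM in the transgenic library, and Col6a2 was 621 and 417 UPM.

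Col6a5 and Col6a6, neighbours on chromosome 9 with 27917 bases between them, did not follow the other type VI genes. Col6a5 stood at 21.3 UPM in the WT and 36.8 UPM in the transgenic progenitors, higher by 0.79 (0.63 to 0.94), but the 5 richest cells held 55.8% of its WT UMIs and 26.6% of its transgenic UMIs. With the called doublets kept the difference fell to 0.08, and without those 5 cells it was 1.52. By state, Col6a5 stood at 56.0 UPM in the WT and 5.65 UPM in the transgenic Dpp4-like cells, and at 17.5 and 222 UPM in F3-like cells. The libraries thus differed in opposite directions in the 2 states, by -3.31 and 3.67. The F3-like cells held 2 clusters, and in cluster 6 Col6a5 had 8 WT and 390 transgenic UMIs. Col6a6 followed the same turn, at 65.6 and 28.7 UPM in Dpp4-like cells and 99.6 and 238 UPM in F3-like cells. Col6a6 was detected more often in cells with Col6a5 than without: it was found in 62.9% of thinned WT progenitors with Col6a5 and 20.3% of those without, and in 74.3% and 22.3% of the transgenic ones. The progenitor states were pooled for these shares, and the part of state in them was not tested. Neither gene had a UMI in endothelial-like cells, which allows at most 3.86 UPM in WT and 6.12 UPM in the transgenic library.

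Among the fibril-associated collagens, Col14a1, which binds fibril surfaces in skin and tendon, was exceeded by Col3a1 and Col1a2 alone in WT progenitors, at 1089 UPM, and stood at 841 UPM in transgenic ones. The difference was -0.37 (-0.40 to -0.35). Col14a1 was highest in Dpp4-like cells, at 1909 and 1820 UPM, where the libraries were close, and these cells were 22.9% of WT and 15.2% of transgenic progenitors. Outside that state the libraries differed more in Icam1-like cells, at 802 and 514 UPM (-0.64), than in cluster 1, at 818 and 738 UPM. Equal weights were also given to Dpp4-like, Icam1-like, F3-like and the remaining progenitors, with clusters 1 and 2 pooled. The associated class as a whole then differed by -0.19 in place of -0.33. Col12a1, a tension-bearing partner of type I fibrils, stood at 60.8 and 63.0 UPM in progenitors. It was lowest in cluster 1, at 12.8 and 12.5 UPM, and near 93 UPM in cluster 2 of both libraries, at 93.0 and 92.9 UPM. Col16a1 was 33.3 UPM in both libraries, and Col20a1 12.6 and 16.6 UPM.

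Of the other collagens, Col8a1, a short-chain network collagen known from vessel walls and the eye, differed most between the libraries. It stood at 19.5 UPM in the WT and 87.5 UPM in the transgenic progenitors, higher in the latter by 2.17 (2.03 to 2.31). The 5 richest cells held 59.7% of its WT and 18.1% of its transgenic UMIs, and without them the difference was 3.19. Col8a1 was higher in the transgenic library in each progenitor class: 26.0 and 165 UPM in Dpp4-like cells, 11.4 and 45.5 UPM in Icam1-like cells, 40.0 and 62.6 UPM in F3-like cells, 10.6 and 153 UPM in cluster 1 and 18.1 and 33.3 UPM in cluster 2. In free RNA it stood at 6.62 and 30.8 UPM. Col8a2, its partner chain, stayed below 10 UPM outside F3-like cells, where it stood at 8.09 and 16.4 UPM. Col23a1, a membrane-spanning collagen, stood at 15.1 and 11.2 UPM in progenitors, a difference of -0.44 (-0.66 to -0.21). Col28a1, a collagen known from peripheral nerve, stood at 2.98 and 15.3 UPM in F3-like cells, and 5 cells held 76.4% of the transgenic UMIs.

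**Figure D4:**
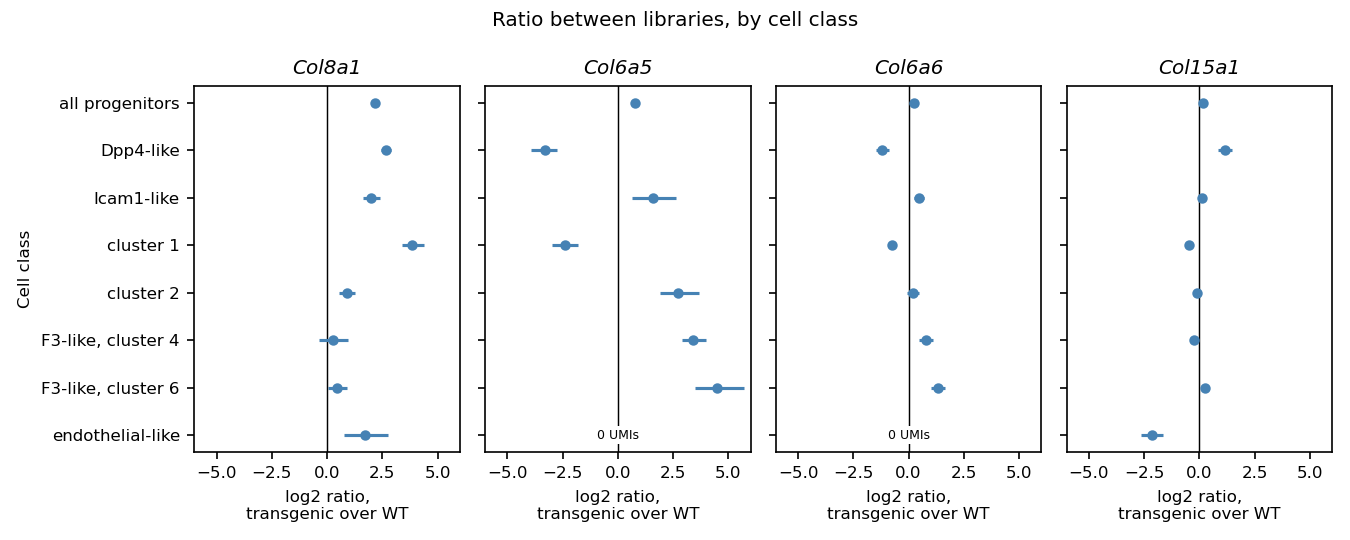
Log2 ratio of the Paqr4 transgenic to the WT level, with exact 95% counting intervals, of Col8a1, Col6a5, Col6a6 and Col15a1 in all progenitors and 7 classes of cells; 0 UMIs marks a gene with none in either library. Col8a1 lies above 0 throughout, with an interval that crosses 0 in cluster 4, whereas Col6a5 and Col6a6 lie below 0 in Dpp4-like cells and above 0 in both F3-like clusters.

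Set against the other progenitors of the same library, Dpp4-like cells had 3 of 26 collagens at least 1.5-fold higher in both libraries, against 5.26% of all genes measured at 10 UPM or more. These were Col14a1 (log2 differences of 1.26 in WT and 1.53 in the transgenic library), Col12a1 (0.66 and 0.81) and Col8a1 (0.60 and 1.21). Another 9 of 26 were at least 1.5-fold lower in both, against 10.2% of all genes: Col15a1 (-4.70 and -3.55), Col4a4 (-2.78 and -2.15), Col4a3 (-2.04 and -2.23), Col4a6 (-1.79 and -2.75), Col4a2 (-1.74 and -1.46), Col4a1 (-1.69 and -1.70), Col27a1 (-1.87 and -1.67), Col20a1 (-1.63 and -1.80) and Col6a3 (-0.73 and -0.64). Thus 6 of the 9 were basement membrane genes, a class that held 8 of the 26 tested. As a class, basement membrane collagens stood lower in Dpp4-like cells by -1.83 and -1.78 and associated collagens higher by 1.17 and 1.40.

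Icam1-like cells had 2 of 26 collagens higher in both libraries (1.4% of all genes), Col4a3 (0.59 and 0.73) and Col4a4 (0.73 and 0.76). They had 4 lower (2.65%), Col6a5 (-3.97 and -3.29), Col6a6 (-1.12 and -0.95), Col8a1 (-0.97 and -1.25) and Col4a5 (-0.70 and -0.70). Which cells carried the Icam1-like name varied with the settings of the clustering, and Col6a6 was higher there, not lower, under 6 of them, by 0.32 to 3.23. As means of both libraries, Col4a5 was under 1.5-fold there under 3 of them (-0.30, -0.11 and 0.17), and Col4a3 was 0.56, just under 1.5-fold, as a mean over cells. F3-like cells had 3 of 26 higher (6.6%), Col4a6 (4.08 and 4.34), Col4a5 (1.77 and 1.86) and Col6a6 (0.59 and 2.05). They had 3 lower (3.45%), Col5a3 (-1.34 and -2.17), Col4a1 (-1.29 and -1.54) and Col4a2 (-1.12 and -1.50). With the collagens kept in the clustering, the F3-like values of Col5a3, Col4a1 and Col4a2 (means of both libraries) were 0.08, 0.39 and 0.47, and at Leiden resolution 0.8 they were -0.35, -0.14 and -0.07, under 1.5-fold. Cluster 1 had 3 of 26 higher (8.99%), Col4a3 (1.48 and 0.86), Col15a1 (1.32 and 0.59) and Col4a2 (0.98 and 0.63), and 2 lower (5.75%), Col12a1 (-2.41 and -2.59) and Col4a6 (-1.44 and -2.63). Cluster 2 had Col12a1 alone of 26 higher (4.27%; 0.91 and 0.70), and 5 lower (14%), Col14a1, Col4a5, Col4a6, Col6a5 and Col6a6.

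The 2 clusters within the F3-like cells shared some of these differences and not others. In the one led by C7 and Prlr (cluster 4, 87 and 113 cells), Col4a5 and Col4a6 were higher (2 of 26, against 6.73% of all genes), by 1.51 and 3.78 in WT and 1.05 and 2.06 in the transgenic library. There 7 of 26 were lower (4.33%), Col12a1, Col15a1, Col4a1, Col4a2, Col5a3, Col6a2 and Col6a3. In cluster 6, 7 of 27 were higher (7.07%), Col4a5 and Col4a6 again, and Col8a2 (3.80 and 3.41), Col12a1 (1.51 and 0.92), Col6a6 (0.98 and 2.38), Col1a1 (0.84 and 0.86) and Col15a1 (0.71 and 0.84). Col4a1, Col4a2, Col4a3, Col4a4 and Col5a3 were lower (5 of 27, against 6.56%). Col12a1 and Col15a1 thus lay on opposite sides of the other progenitors in the 2 clusters. Col1a1 reached its highest level of all progenitor clusters in cluster 6, at 1565 and 1468 UPM.

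Endothelial-like cells had 2 of 27 collagens at least 1.5-fold higher than progenitors in both libraries, against 26.3% of all genes, and 22 lower, against 19.6%. Col13a1, a transmembrane collagen, stood at 338 UPM in the WT and 58.0 UPM in the transgenic endothelial-like cells, and at no more than 7.30 UPM in any progenitor cluster. Col4a2 stood at 1737 and 1287 UPM, above progenitors by 1.89 and 1.00. Col4a1 stood at 2370 and 1895 UPM, above progenitors by 1.25 in WT and by 0.43, under 1.5-fold, in the transgenic library. Fibrillar collagens summed to 129 and 74.6 UPM, lower than in progenitors by -5.85 and -6.69. Col1a1 had 15 UMIs in WT and 3 in transgenic endothelial-like cells, and 5 cells held 86.7% and 100% of them. The progenitor gene Dcn stood at 134 and 28.2 UPM in the same cells and at 4165 and 5287 UPM in free RNA. The part of progenitor or free RNA in these fibrillar values was not tested. The endothelial marker list summed to 8945 and 7736 UPM in endothelial-like cells and to 5.93 and 5.50 UPM in progenitors, with 0 of its 8 genes at 10 UPM there.

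Within endothelial-like cells the libraries differed in Col13a1, with 323 WT and 35 transgenic UMIs (-2.54), and in Col15a1, at 311 and 71.3 UPM (-2.12). These cells fell into a sub-cluster led by Cd36 and Fabp4, with 37 WT and 66 transgenic cells, and one led by Plvap and Emcn, with 58 and 13. Col13a1 stood at 22.2 and 1.99 UPM in the former and at 571 and 340 UPM in the latter. Col15a1 stood at 143 and 57.6 UPM in the former and 435 and 140 UPM in the latter. Both genes were thus higher in the Plvap cells, of which the transgenic library had fewer. Within each sub-cluster both stood lower in the transgenic library, Col13a1 in the Cd36 cells on 9 and 1 UMIs. Plvap itself, a gene of fenestrated endothelium, differed the same way, at 244 and 99.4 UPM in the Cd36 cells and 2619 and 2102 UPM in the Plvap cells, and its part in these differences was not tested. Col4a1 stood at 1854 and 1860 UPM in the Cd36 cells and at 2751 and 2071 UPM in the Plvap cells, and Col4a2 at 1305 and 1234 UPM and at 2056 and 1551 UPM. The type IV genes were thus lower in the transgenic library in the Plvap cells and nearly level in the Cd36 cells. Over all endothelial-like cells, 3 of 15 collagens were higher by 1.5-fold or more in the transgenic library (15.7% of all genes), Col8a1, Col28a1 and Col6a3, and 6 of 15 lower (19.4%), Col13a1, Col15a1, Col1a1, Col1a2, Col3a1 and Col5a3.

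Between the libraries, 4 of 26 collagens at 10 UPM or more in progenitors were higher by 1.5-fold or more in the transgenic library, against 2.75% of 8750 genes. These were Col4a3, Col4a4, Col6a5 and Col8a1, with the values given above. None of 26 was 1.5-fold lower, against 1.77% of all genes. The median log2 difference was 0.15 over the collagens, 21 of which lay above 0, and 0.09 over all genes. Since the median of all genes was itself above 0 and their share above 0 is not given, the 21 is no result about the collagens. At 2-fold only Col8a1 remained, a count given without the share of all genes at 2-fold. As classes, basement membrane collagens stood higher in the transgenic library by 0.42 (0.40 to 0.43), associated collagens differed by -0.33 (-0.35 to -0.30), and fibrillar and microfibril collagens by 0.06 and 0.05. In free RNA 12 of 25 collagens were higher by 1.5-fold or more in the transgenic library, against 28.6% of all genes there, and none was lower, against 2.78%, with Col4a1 at 491 and 851 UPM and Col3a1 at 1620 and 2409 UPM. The part of free RNA in the progenitor values was not tested.

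**Figure D5:**
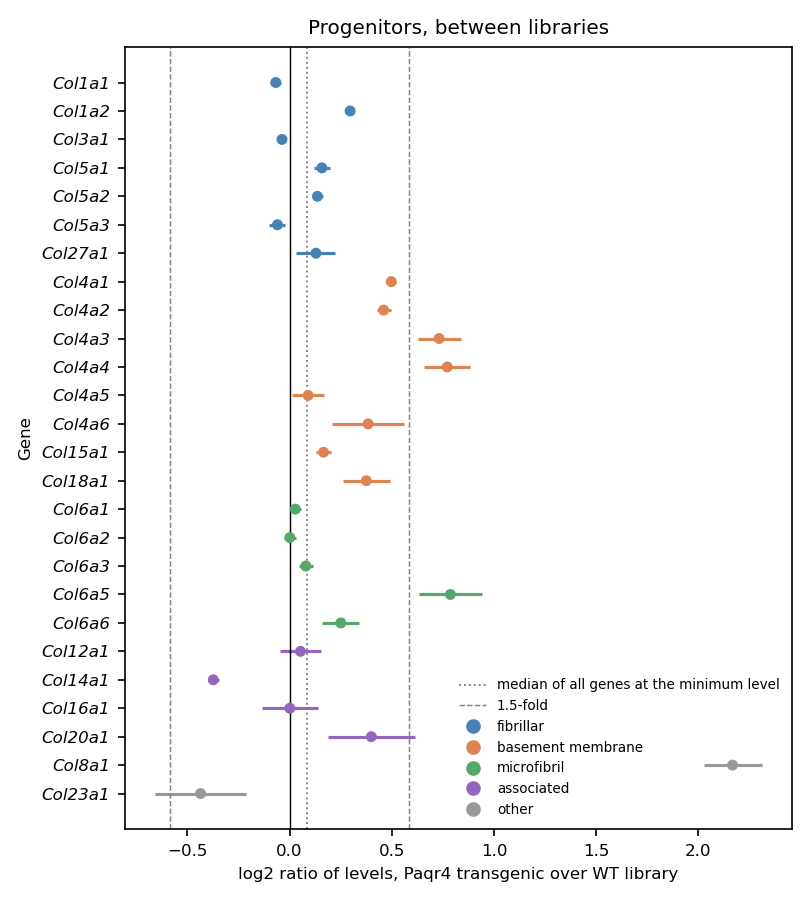
Log2 ratio of the Paqr4 transgenic to the WT level in progenitors for the 26 collagens at 10 UPM or more, with exact 95% counting intervals; dashed lines mark 1.5-fold and the dotted line the median of all genes. Col8a1 lies farthest to the right, the type IV genes lie to the right of 0, and Col14a1 and Col23a1 lie to the left.

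State by state, the collagens past 1.5-fold were not the same. In Dpp4-like cells 5 of 24 were higher in the transgenic library (6.4% of all genes), Col8a1, Col15a1, Col4a4, Col23a1 and Col4a2, and 3 lower (4.08%), Col6a5, Col6a6 and Col4a5. In Icam1-like cells 5 of 25 were higher (4.37%), among them Col4a3 at 60.7 and 103 UPM and Col4a4 at 55.4 and 92.1 UPM, and Col14a1 and Col4a6 were lower (2.75%). In F3-like cells 8 of 28 were higher (7.81%), Col4a3, Col4a4, Col6a5, Col6a6, Col8a1, Col8a2, Col18a1 and Col28a1, while Col23a1 and Col5a3 were lower (6.59%). In cluster 1 Col8a1 alone of 25 was higher (4.79%), with Col23a1, Col6a5 and Col6a6 lower (6.43%). Col4a1 in that cluster was 1751 and 1862 UPM, and the basement membrane class 3806 and 3813 UPM, nearly level. In Icam1-like cells the same class stood at 2708 and 3740 UPM. In cluster 2, Col4a4, Col6a5 and Col8a1 were higher (3 of 25, against 4.86%) and none was lower (4.16%). Within the F3-like cells, cluster 4 had 7 of 27 higher (12.5%) and 3 lower (9.51%), and cluster 6 had 5 of 27 higher (14.3%) and 3 lower (12%), with Col4a3, Col4a4, Col6a5 and Col6a6 higher and Col23a1 and Col5a3 lower in both. Col8a1 passed 1.5-fold in Dpp4-like, Icam1-like and F3-like cells and in clusters 1 and 2, but in neither cluster 4 nor cluster 6 taken alone. A small cluster not counted among the progenitors (cluster 7) held Col3a1 at 2760 UPM in WT and 3125 UPM in the transgenic library. There Col4a3 (76.7 and 45.2 UPM) and Col4a4 (58.5 and 25.5 UPM) were instead lower in the transgenic library. In each library 5 cells held 55.2% to 77.3% of the UMIs of these 2 type IV genes.

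Of 37 genes that make and process collagen, 33 reached 10 UPM in progenitors, with 1 higher in the transgenic library (2.75% of all genes) and 2 lower (1.77%). Plod1, a lysyl hydroxylase, stood 1.5-fold or more higher in the transgenic library, at 31.1 and 48.4 UPM, while Tll1, a procollagen proteinase of the tolloid family (13.3 and 4.97 UPM), and Colgalt2, a collagen galactosyltransferase (15.5 and 8.56 UPM), stood lower. The list's median difference was 0.10, against 0.09 for all genes. In F3-like cells 5 of 31 were higher (7.81% of all genes) and 1 lower (6.59%), with a median of 0.24 against 0.06. In endothelial-like cells 2 of 23 were higher (15.7%) and 4 lower (19.4%), with a median of -0.31 against -0.04. Below the 1.5-fold mark, Sparc, a matrix protein that binds collagen, stood at 1714 and 2521 UPM (0.56), Serpinh1, the collagen chaperone, at 629 and 808 UPM (0.36), and Lox, which cross-links fibrils, at 112 and 140 UPM (0.32). Of 12 collagen receptor genes 8 reached 10 UPM in progenitors and none passed 1.5-fold there (2.75% and 1.77% of all genes), with a median of -0.05. By class, 1 of 7 was lower in Dpp4-like cells (4.08% of all genes), with a median of -0.18, and 1 of 8 in cluster 1 (6.43%). In cluster 4, 1 of 8 was higher (12.5%). In cluster 6, 1 of 8 was higher (14.3%) and 2 lower (12%). In endothelial-like cells 1 of 4 was higher (15.7%) and 1 lower (19.4%). Itga2 stood at 25 and 16.9 UPM and Itga11 at 120 and 90.0 UPM, both integrin subunits that bind collagen, and Ddr2, a receptor kinase for fibrillar collagen, at 931 and 879 UPM.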

How the data were processed

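The deposited matrices hold counts, namely unnormalised UMIs per gene and barcode for all barcodes. Cell Ranger 7.0.0 and build mm10 are named per the submitters' processing notes and Cell Ranger 4 per the file headers, and no source used here settles which applies. Features with the same symbol were summed. Scrublet (scanpy 1.11.5) marked 3 WT and 13 transgenic doublets. Counts of all genes were scaled to 10000 UMIs per cell, and the 44 collagens were then left out. From the other genes, 2000 variable genes, 30 principal components and 15 neighbours were clustered by the Leiden method (leidenalg 0.10.2, resolution 0.5, seed 1) without correction between libraries. Clusters were named from marker lists, at least 3 markers being required. The members, gene lists, markers and naming thresholds were chosen with earlier results of these data known.

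UMIs of a class were summed per library over the class total, so 3′ tags compare genes irrespective of length. Ratios carry exact conditional binomial intervals and levels exact Poisson intervals (scipy 1.17.1). Cells are not replicates, so no test was run. Collagens at 10 UPM or more in a class are described with values, and the others are named only. The counting code was tested on simulated data. In progenitors the summed depth was 25620740 and 26170190 UMIs; haemoglobin took 28.2% and 29.1% of all UMIs of the libraries. Alternatives covered resolution, filters, doublets, thinning, weighting, fold and level minimum.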

Additional observations from a re-analysis of the deposited data

Results flagged for a closer look

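For 5 genes the libraries differed in opposite directions in 2 classes of cells, each by 1.5-fold or more with a counting interval clear of 0. The classes set against each other were those with the highest and the lowest difference for that gene among the classes searched. Clusters 4 and 6 were searched only where the other classes gave no opposite pair, here for Col4a6 alone. For the other genes these 2 clusters may therefore hold a larger difference, as for Col6a5 in cluster 6, at 9.74 UPM in WT and 214 UPM in the transgenic library. The share of all genes that meet this rule was not computed, so the count is not a result about the collagens. In each case the difference between the classes was not tested, since each genotype has 1 library.

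Col6a5 was lower in transgenic Dpp4-like cells by -3.31 on the log2 scale and higher in transgenic F3-like cells by 3.67, a gap of 6.97. It was also higher in cluster 2 and lower in cluster 1, where 5 cells held 99.0% of its WT UMIs. Without the 5 richest cells the Dpp4-like value was -6.40 and the F3-like value 4.89, and at Leiden resolution 0.8 they were -5.30 and 1.80. Col6a6 was lower by -1.19 in Dpp4-like cells and higher by 1.26 in F3-like cells, a gap of 2.45.

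Col15a1 was higher in transgenic Dpp4-like cells by 1.16 and lower in transgenic endothelial-like cells by -2.12, a gap of 3.28. The Dpp4-like value was 0.67 after thinning and 0.78 as a mean over cells. Col23a1 was higher in transgenic Dpp4-like cells by 0.63 and lower in transgenic cells of cluster 1 by -1.21, a gap of 1.83, with levels of 7.04 and 10.9 UPM in the former and 28.0 and 12.1 UPM in the latter. Col4a6 was higher in transgenic cells of cluster 6 by 0.95 and lower in transgenic Icam1-like cells by -1.0, a gap of 1.95, and lower also in cluster 4 by -0.80.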

How the results depend on the processing

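Each genotype has 1 library, so no replicate could be left out. No paired analysis was possible because each genotype has 1 library. Equal weights for the states gave log2 differences between the libraries of 0.0803 for all collagens, 0.34 for basement membrane, -0.19 for associated and 0.0392 for fibrillar collagens. Means over cells gave 0.0865 for all collagens, 0.37 for basement membrane and 0.0293 for microfibril collagens. Thinning to 5000 UMIs gave 0.40 for basement membrane and -0.29 for associated collagens. The counts of called collagens below are given without the share of all genes under the same setting. They show how the calls moved with the setting and are not results about the collagens. At 2-fold the count of collagens higher was 1 in transgenic progenitors, 1 in Dpp4-like, 0 in Icam1-like and 1 in endothelial-like cells. Thinning left 1 higher in Dpp4-like and 1 in Icam1-like cells. A minimum of 50 UPM gave 14 lower in endothelial-like cells. Higher in F3-like cells were 7 at resolution 0.3, 7 with doublets kept and 8 when 141 genes that differ 2-fold between libraries were kept out of the clustering, a setting added after seeing the data. Higher in Icam1-like cells were 5 in that added setting, 4 and 6 at resolutions 0.3 and 0.8, 6 with doublets kept, 5 at 2000 UMIs, 5 at 5% mitochondrial UMIs, 9 with collagens in the clustering and 0 as means over cells. Directions turned for Icam1-like Col6a6 (0.32 in the added setting, 0.81 and 0.77 at resolutions 0.3 and 0.8, 0.61 with doublets, 0.48 at 5% mitochondrial UMIs, 3.23 with collagens in the clustering) and Col4a5 (0.17 at resolution 0.3), and, with collagens in the clustering, for F3-like Col4a1 (0.39), Col4a2 (0.47) and Col5a3 (0.0823). The cause was not tested. Shallow classes limit low genes: endothelial-like cells had medians of 9857 and 7584 UMIs.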

Other observations

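Small classes of cells had collagen profiles of their own. The 11 WT and 6 transgenic pericyte or smooth muscle-like cells held Col4a1 at 1457 and 2241 UPM and Col4a2 at 1393 and 1527 UPM, and basement membrane genes made up 65.7% and 54.1% of their collagen UMIs. Lymphatic endothelial-like cells, 6 in each library, held Col4a1 at 597 and 800 UPM and had no UMI of Col1a1, Col3a1 or Col13a1. Their Col18a1 stood at 330 and 604 UPM, on 21 and 34 UMIs, and that of Schwann-like cells (6 and 3 cells) at 581 and 645 UPM, against 43.4 and 56.2 UPM in progenitors. The pancreatic acinar-led cluster held collagens at 0.00968% and 0.00185% of its UMIs. With so few cells these levels are values of single libraries only.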
